A study of Mus musculus with 6 samples.

Results

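Of the 11171 circRNAs listed in mouse cortex, 172 came from 42 host genes that encode molecular motors, spectrins, ankyrins and proteins that link or organise the cytoskeleton. CircRNAs are closed RNA loops made when the end of an exon is spliced back onto an earlier exon (back-splicing), and the host is the gene whose exons they carry. A circRNA was counted here when it had a single listed host whose symbol was Kif, Klc, Myo, Dync, Dnm, Sptan, Sptbn, Clasp, Camsap or Fmn followed by a number, or was 1 of 12 named genes (Ank1, Ank2, Ank3, Macf1, Dst, Map1a, Map1b, Map2, Map4, Mapt, Iqgap1 and Iqgap2). No circRNA was listed for Ank1, Map1a, Map1b or Iqgap1. In all, 10273 circRNAs had 1 listed host, and these hosts numbered 3469.

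The samples were cortex of male C57BL/6 mice, 6 weeks old, with 3 Control and 3 temporal lobe epilepsy (TLE) mice and 1 library each. TLE mice received scopolamine methyl bromide, pilocarpine to induce Status Epilepticus and diazepam to end it, and cortex was taken 24 h after Status Epilepticus; Control mice received saline in place of each agent. The groups therefore differ in all 3 drugs as well as in the seizures, and these cannot be told apart. Cortex is a mixed tissue, so fewer cells of a type and less RNA per cell cannot be told apart either.

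These proteins move cargo along the cytoskeleton or hold it together. Kinesins and dyneins walk along microtubules and myosins along actin filaments, dynamins pinch off membrane vesicles, and formins build unbranched actin filaments. Spectrins and ankyrins form the lattice under the plasma membrane that anchors ion channels at the axon initial segment, spectraplakins bridge actin and microtubules, and microtubule-associated and end-binding proteins set where microtubules grow and stop. Neurons depend on the microtubule motors among them because cargo must travel the length of axons and dendrites.

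Levels are given in SRPBM, junction reads scaled to the mapped reads of a library. In each library the values were whole multiples of 1 step, between 8.55 and 10.3 SRPBM, which was taken as 1 junction read, and the smallest listed value above 0 was 2 reads. Libraries held between 32504 and 56516 junction reads, TLE 3 the most and TLE 1 the least, and the total SRPBM was 1.18 times as high in TLE as in Control with overlapping groups. The floor for a circRNA listed at 0 was set at 3 reads (25.6 to 31.0 SRPBM by library) and allows for counting error alone. Hosts of the neuron marker list carried between 5102 and 7424 SRPBM in every library (8 of its 10 genes were hosts). Of 6 astrocyte markers 2 were hosts (27.9 to 121 SRPBM), of 6 oligodendrocyte lineage markers 1 was (0 to 34.2 SRPBM), and none of the microglia, endothelium or striated muscle and liver markers was listed.

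The loops are best identified by their back-splice junctions, and those of 10 circRNAs that carry the results below are printed first: 8 of the most abundant and the 2 that passed the threshold between groups. Each line gives the last 15 bases of the donor exon in lower case followed by the first 15 bases of the acceptor exon in capitals, read 5′ to 3′ on the host's strand from the GENCODE M21 transcripts of GRCm38. The first pair shares its donor, the end of Fmn2 exon 6, and differs in its acceptor.
Fmn2 mmu_circ_0005022: acaaaggccaaacaaGAAGTTTTCGATGTG
Fmn2 mmu_circ_0005016: acaaaggccaaacaaCAAGATCAGCTTTAC
Camsap1 mmu_circ_0006027: ttctggatcaataagACAACATCCCTGAGG
Myo9a mmu_circ_0010571: tgaaaaaaatcaacaGATTGCTTCACAGTG
Myo5a mmu_circ_0010715: caagcaaatggcaagTTTGCCAGGGTTTGG
Dync2h1 mmu_circ_0010677: aggtgcctgtttaagGTTGCCGAGATAGCT
Ank3 mmu_circ_0000334: atgacccagttgatgGTCCGCAGAGTCCTT
Iqgap2 mmu_circ_0002201: cattcacgcgctaagCAATCGTGGATGATG
Iqgap2 mmu_circ_0002197: cctcgatctgctgccATTCAGTCCTGGTTC
Camsap2 mmu_circ_0004814: gaacagagtacacagGAGGAATTAGAAGGT
All 10 joined annotated exon ends within coding sequence.

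The Fmn2 junctions lie at chr1:174608382-174612651 (exon 5 to exon 6) and chr1:174581916-174612651 (exon 3 to exon 6), both on the plus strand. Camsap1 mmu_circ_0006027 spans chr2:25965663-25966948 on the minus strand (exon 2 to exon 3). Myo9a mmu_circ_0010571 spans chr9:59801914-59843138 (exon 7 to exon 16), and Myo5a mmu_circ_0010715 spans chr9:75116186-75123055 (exon 2 to exon 4), both on the plus strand. Dync2h1 mmu_circ_0010677 spans chr9:7023311-7050483 on the minus strand (exon 63 to exon 71), and Ank3 mmu_circ_0000334 spans chr10:69994372-69999498 on the plus strand (exon 36 to exon 38). The Iqgap2 circRNAs, on the minus strand, span chr13:95746438-95837923 (exon 2 to exon 5) and chr13:95661587-95673756 (exon 19 to exon 25), and Camsap2 mmu_circ_0004814 spans chr1:136273750-136282881 on the minus strand (exon 12 to exon 17).

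The 42 hosts together made up 1.20% ± 0.114 of the SRPBM in Control and 1.20% ± 0.101 in TLE (SD, n = 3 each). Their summed level was 4230, 4342 and 3902 SRPBM in Control 1, 2 and 3 and 4318, 4454 and 5988 SRPBM in TLE 1, 2 and 3, a ratio of 1.18 between the group means, and the groups overlapped. The ratio was 1.0 once each library was scaled to the same total. Between 27 and 30 of the hosts were above 0 in a Control library and between 31 and 37 in a TLE library, without overlap of the groups. TLE 3, the deepest library, had the most hosts and TLE 1, the shallowest, had 34. This count was not made over all hosts, so it has no background and is not read as particular to these hosts. The number of single member circRNAs above 0 ran from 62 to 74 in Control and from 73 to 93 in TLE, which overlapped.

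The level was held by few hosts. Fmn2 and Fmn1 carried 35.8% of it, the first 4 hosts 51.2% and the first 12 hosts 79.9%, and the 10 most abundant circRNAs carried 43.3%. The hosts had a median of 3 circRNAs, against 2 for all hosts, and 9 hosts had a single circRNA. Of the 42 hosts, 19 were above 0 in all 6 libraries and 5 in 1 library only. The hosts listed at 0 in all 3 Control libraries numbered 8 and those listed at 0 in all 3 TLE libraries 1 (Myo6, a myosin that walks towards the minus end of actin), and none of these 9 had over 8 reads in all. Such hosts were not counted over the whole series, so these numbers have no background either. Of the 172 circRNAs, 26 were above 0 in all 6 libraries (15.1%, against 13.9% of all circRNAs), 76 were listed in 1 library only, 114 had at most 10 reads over the 6 libraries, and 7 had at least 100.

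**Figure D1:**
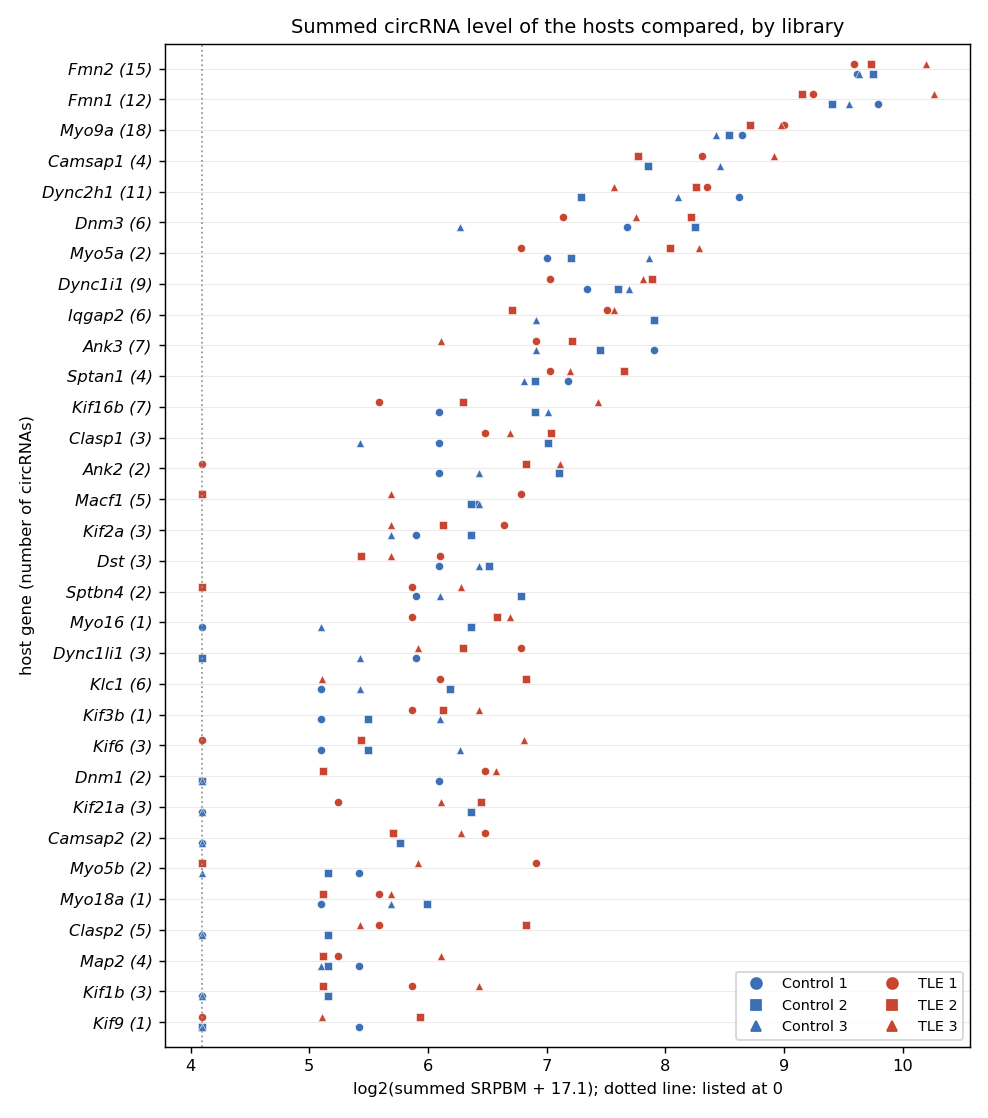
Summed circRNA level of the 32 hosts above 0 in at least 3 libraries, as log2(SRPBM + 17.1) on the horizontal axis, one row per host with its number of circRNAs, blue for Control and red for TLE, with a symbol for each replicate. Fmn2 and Fmn1 lie furthest right, the Myo9a, Dync1li1 and Clasp2 rows have all 3 TLE libraries right of all 3 Control libraries, and points on the dotted line are listed at 0.

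TLE was compared with Control by limma on log2(SRPBM + 17.1), the constant being the lowest listed value other than 0, for the 2157 hosts and, separately, the 4271 circRNAs above 0 in at least 3 libraries. A call needed a log2 fold change of 1.5 or more, up or down, and an unadjusted p under 0.05. All log2 fold changes here are on that scale, which understates the change of low values. Of the 42 cytoskeletal hosts 32 could be compared. Of these, 1 (Camsap2) was called higher in TLE and none lower, against a background of 1.53% of all hosts called higher (33) and 0.371% called lower (8). Without a fold threshold 3 had an unadjusted p under 0.05 in limma (Camsap2, Clasp2 and Kif1b), against 6.17% of all hosts (133), and none had an adjusted p under 0.05, the smallest being 0.766. The log2 fold change was above 0 for 22 hosts and below 0 for 10, against 1408 above and 749 below among all 2157 hosts. The median was 0.29, against 0.20 for all hosts. After each library was scaled to the same total these medians were 0.11 and 0.02, 19 hosts lay above 0 and 13 below, the calls over all hosts went from 33 higher and 8 lower to 22 and 11, and Camsap2 was no longer called.

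All 3 TLE libraries lay above all 3 Control libraries for 3 of the 32 hosts (Myo9a, Dync1li1 and Clasp2), against 10.7% of all hosts, and below them for none, against 1.95%. After scaling to the same total none of the 32 separated the groups in either direction, against 5.61% and 4.73% of all hosts. Of the 172 circRNAs 72 could be compared: 1 was called higher in TLE (background 1.26%, 54 circRNAs) and 1 lower (background 0.304%, 13 circRNAs). Both called circRNAs were listed at 0 throughout the other group and met the filter only through the group where they were higher. Passing the filter in that way fixes the separation of the groups in advance, so these calls are not evidence of a difference. By limma 2 had an unadjusted p under 0.05 (background 5.2%, 222 circRNAs), with no adjusted p below 0.838. All TLE libraries lay above all Control libraries for 4 circRNAs (background 8.94%) and below them for 1 (background 2.11%), and after scaling to the same total for 3 and 6, against 5.08% and 4.96% of all circRNAs. The median log2 fold change was 0.29 for the 72 and 0.17 for all circRNAs, and 0.10 and 0.01 after scaling to the same total, where the calls over all circRNAs went from 54 higher and 13 lower to 37 and 25.

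**Figure D2:**
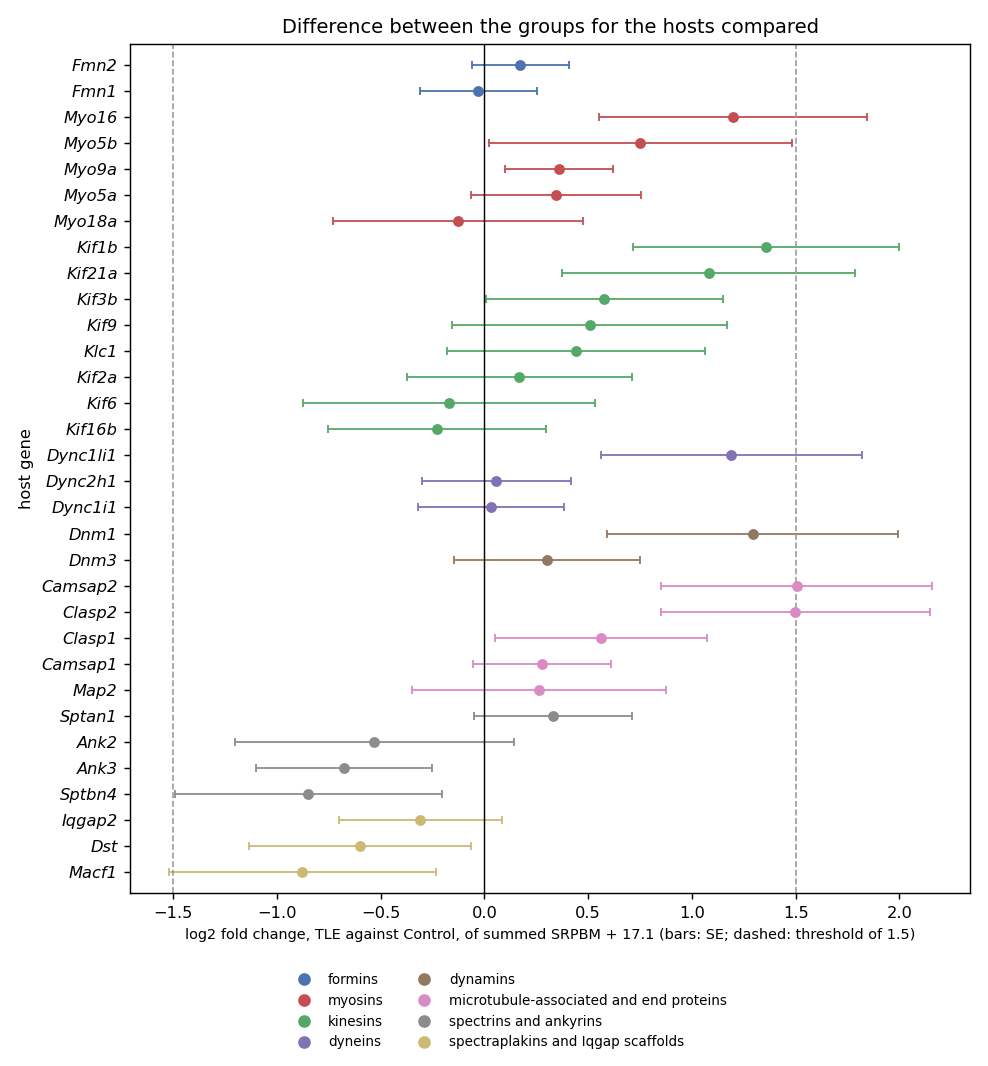
Log2 fold change between TLE and Control for the 32 hosts compared, with bars of 1 standard error, coloured by the kind of protein, and dashed lines at the threshold of 1.5. Camsap2 (1.504) and Clasp2 (1.498) lie furthest right. Left of 0 lie 3 of the 4 spectrin and ankyrin hosts and all 3 spectraplakin and Iqgap hosts, all with limma p above 0.05. Of all 2157 hosts 749 lay below 0.

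Formins, which speed the growth of actin filaments at their fast-growing end, were the most abundant kind, with 27 circRNAs of 2 hosts. Fmn2, known for its part in the oocyte spindle and expressed in neurons, was the highest host of all. Its 15 circRNAs summed to 769, 846 and 775 SRPBM in Control 1 to 3 and to 754, 833 and 1159.5 SRPBM in TLE 1 to 3. TLE 3 alone lay above the Control range, the groups overlapped, and limma gave a log2 fold change of 0.17 ± 0.23 (SE; adjusted p = 0.907), which was -0.05 after scaling to the same total. Most of the level came from 1 region: loops that end at exon 6 held 75.2% of the Fmn2 reads, and loops that start at exon 5 held 52.5%. The loop of exons 5 and 6, mmu_circ_0005022, was the most abundant of the 172 circRNAs with 264 reads, and its level was 367, 409 and 448 SRPBM in Control and 320.2, 368 and 450.0 SRPBM in TLE. Its share of the Fmn2 reads lay between 47.8% and 57.8% in Control and between 38.8% and 44.2% in TLE, so the groups did not overlap in this share. Of the 12 most abundant hosts the share of the main loop separated the groups in 2, lower in TLE in Fmn2 and higher in TLE in Iqgap2, where Control 3 had no read of it. This share was not computed for the other hosts of the whole series, so the 2 of 12 have no background and are not read as a difference. A second loop, exons 3 to 6 (mmu_circ_0005016), had 197, 139 and 121 SRPBM in Control and 103, 245 and 251 SRPBM in TLE and overlapped.

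Fmn1, which acts in limb and kidney development and at cell junctions, had 872, 660.1 and 732 SRPBM in Control and 589, 552 and 1211 SRPBM in TLE from 12 circRNAs. TLE 1 and TLE 2 lay below the Control libraries and TLE 3 above them, with a log2 fold change in limma of -0.03 ± 0.28 (SE; adjusted p = 0.988). The main Fmn1 circRNA was exon 2 alone, mmu_circ_0005576 (chr2:113363836-113365829, 1994 bases, from the 5′ UTR into the coding sequence). It had 44, 40 and 43 junction reads in Control 1 to 3 and 37, 0 and 72 in TLE 1 to 3. Limma gave a log2 fold change of -1.25 ± 0.84 (SE; adjusted p = 0.922), which was 0.37 without TLE 2 and would have been called lower without TLE 1 (-1.90) or TLE 3 (-2.24). TLE 2 was thus listed at 0 for a circRNA that had at least 37 reads in every other library. Listings of this kind were not limited to Fmn1: of the 400 circRNAs with at least 100 reads in the whole table, 23 (5.75%) were listed at 0 in at least 1 library. The other 11 Fmn1 circRNAs summed to 496, 288 and 362 SRPBM in Control and 207, 552 and 588 SRPBM in TLE, so that TLE 1 lay below all Control libraries and TLE 2 and TLE 3 above them.

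**Figure D3:**
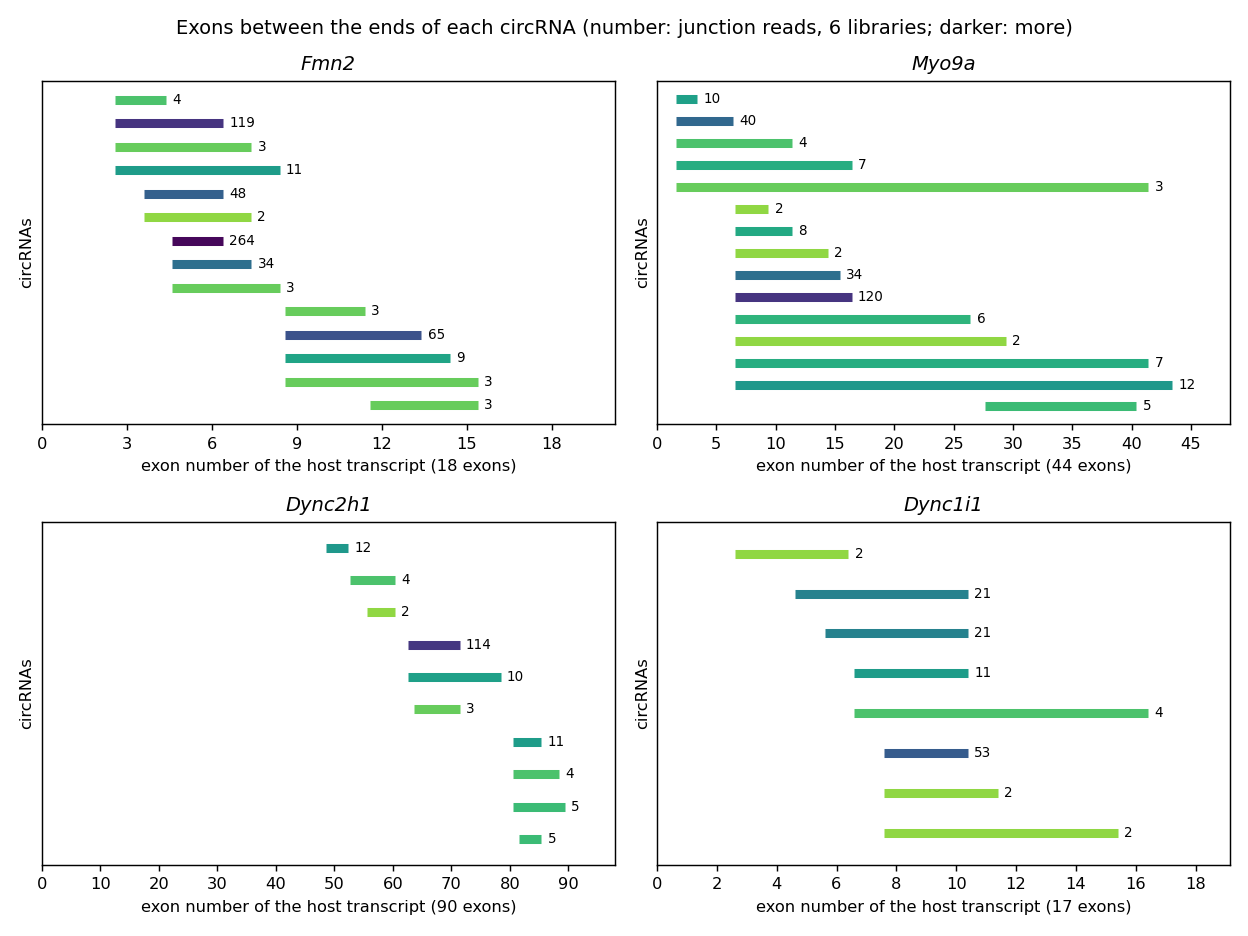
Exons between the ends of each circRNA of 4 hosts, drawn against the exon number of the host transcript, each bar 1 circRNA with its junction reads over the 6 libraries beside it. In Fmn2 3 bars share the end at exon 6, in Myo9a 9 bars share the start at exon 7, in Dync1i1 4 bars share the end at exon 10, and all 10 bars of Dync2h1 lie between exon 49 and exon 89 of 90.

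Of the 25 annotated genes whose symbol is Myo followed by a number, 7 were hosts, with 28 circRNAs. Their summed level was 538, 632 and 620.2 SRPBM in Control and 764, 745 and 978 SRPBM in TLE, and the groups did not overlap; as a share of the library total it was 0.153%, 0.191% and 0.172% in Control and 0.228%, 0.182% and 0.1999% in TLE, and they overlapped. Myo9a, an unconventional myosin, gave the largest number of circRNAs of all 42 hosts, 18. Its levels were 385, 353 and 327 SRPBM in Control and 496, 403 and 485 SRPBM in TLE. The 3 TLE libraries lay above the 3 Control libraries, but the difference was small and did not pass in limma (log2 fold change 0.36 ± 0.26, SE; adjusted p = 0.891). Loops starting at exon 7 numbered 9 and held 71.2% of its reads, and 5 further loops started at exon 2. The loop with the most annotated exons between its ends of all 172, mmu_circ_0010563, had 40 of them with 7181 bases. It had 3 reads, all in TLE 1, and which of these exons it keeps was not observed. A loop of exons 7 to 43 (mmu_circ_0010575) had 17.1 SRPBM in Control 1, 0 in Control 2 and 3, and 20.7, 26.3 and 43.3 SRPBM in TLE, so TLE was above Control, although Control 1 and TLE 1 had 2 reads each and differ by the size of a step alone (limma, log2 fold change 1.10 ± 0.61, SE; adjusted p = 0.922).

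Myo5a, the motor that carries endoplasmic reticulum into dendritic spines and melanosomes in pigment cells, was nearly all 1 loop, exons 2 to 4, which held 98.4% of its reads. The host level was 111, 130.2 and 215 SRPBM in Control and 93.0, 245 and 294 SRPBM in TLE. TLE 1 lay below all Control libraries and TLE 2 and TLE 3 above them (limma, log2 fold change 0.35 ± 0.41, SE; adjusted p = 0.905). The other 5 myosin hosts had between 4 and 32 reads each. Myo16, a myosin with ankyrin repeats found in neurons, had 1 circRNA, with 0, 65.1 and 17.2 SRPBM in Control and 41.3, 78.9 and 86.5 SRPBM in TLE. These groups overlapped (limma, log2 fold change 1.20 ± 0.65, SE; adjusted p = 0.834).

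Kinesins gave the most hosts, 11 (light chain Klc1 included) of the 44 annotated genes whose symbol is Kif or Klc followed by a number. They had 33 circRNAs, but a low level of 362 SRPBM on average over the 6 libraries. Of the 8 kinesin hosts compared none was called, and 6 had a log2 fold change above 0, against 1408 of all 2157 hosts. After scaling to the same total 6 of the 8 were again above 0. Kif16b, which moves early endosomes, had the most circRNAs of the kind, 7, with 51.3, 102 and 112 SRPBM in Control and 31.0, 61.4 and 156 SRPBM in TLE. The groups overlapped widely (limma, log2 fold change -0.23 ± 0.53, SE; adjusted p = 0.954). Of its reads 58.6% ended at exon 12, shared by 3 loops. Kif1b, a carrier of mitochondria and synaptic vesicle precursors, had 0, 18.6 and 0 SRPBM in Control and 41.3, 17.5 and 69.2 SRPBM in TLE, and Control 2 and TLE 2 had 2 reads each (limma, log2 fold change 1.36 ± 0.64, SE; adjusted p = 0.792). Kif1a and Kif5c, motors of axonal transport in neurons, had 4 and 7 reads in all and none of these came from a Control library.

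Of the 7 annotated genes whose symbol is Dync followed by a number, 4 were hosts, with 24 circRNAs. Dync2h1, the heavy chain of the dynein that returns cargo along cilia, had 376, 139 and 258 SRPBM in Control and 309.9, 289 and 173 SRPBM in TLE. The groups overlapped (limma, log2 fold change 0.06 ± 0.36, SE; adjusted p = 0.985), and the sign turned negative, -0.15, after scaling to the same total. Its main loop, exons 63 to 71, held 66.3% of the host's reads. Dync1i1, the intermediate chain by which neuronal dynein holds cargo, had 145, 177 and 189.5 SRPBM in Control and 114, 219 and 208 SRPBM in TLE, again overlapping. Of its reads 91.5% ended at exon 10, from 5 different starts. Among them the loop of exons 5 to 10 (mmu_circ_0008784) had 25.6, 27.9 and 0 SRPBM in Control and 41.3, 35.1 and 60.6 SRPBM in TLE, with TLE above Control (limma, log2 fold change 0.95 ± 0.62, SE; adjusted p = 0.922). Dync1li1, a light intermediate chain that binds cargo adaptors, had 42.7, 0 and 25.8 SRPBM in Control and 93.0, 61.4 and 43.3 SRPBM in TLE. TLE 3 exceeded Control 1 by less than 1 read, and limma gave a log2 fold change of 1.19 ± 0.63 (SE; adjusted p = 0.834). Dync1h1, the heavy chain of the main dynein, had 6 reads in all, none of them in Control.

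All 3 classical dynamins were hosts, with 9 circRNAs. Dnm3, the dynamin placed beside the postsynaptic density, had 188, 288 and 60.3 SRPBM in Control and 124, 281 and 199 SRPBM in TLE. Control 3 was the lowest library, and the groups overlapped (limma, log2 fold change 0.30 ± 0.45, SE; adjusted p = 0.907). Without Control 3 the log2 fold change was -0.26. Its 6 loops used 2 acceptors: exon 3 for 1 loop with 37.0% of the reads and exon 8 for the other 5 with 63.0%. Dnm1, the dynamin of synaptic vesicle recycling, had 51.3, 0 and 0 SRPBM in Control and 72.3, 17.5 and 77.9 SRPBM in TLE, with Control 1 above TLE 2 (limma, adjusted p = 0.834).

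The microtubule-associated and end-binding hosts summed to 291, 399.8 and 379 SRPBM in Control and 527, 465 and 753 SRPBM in TLE, without overlap; as a share of the library total they ran from 0.0827% to 0.121% in Control and from 0.114% to 0.157% in TLE, with overlap. All 5 hosts of the kind that could be compared had a log2 fold change above 0, against 1408 of all 2157 hosts. Their median was 0.56, which was 0.38 after scaling to the same total with all 5 still above 0. Camsap1, which caps microtubule minus ends, was the highest, with 214, 214 and 336 SRPBM in Control and 299.6, 202 and 467 SRPBM in TLE, overlapping. Of its 4 loops, exons 2 and 3 (mmu_circ_0006027) held 73.1% of the reads and had 128, 149 and 276 SRPBM in Control and 165, 175 and 363 SRPBM in TLE.

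Camsap2, a second minus-end protein that stabilises microtubules in dendrites, was the host called higher in TLE. Its 2 circRNAs summed to 0, 37.2 and 0 SRPBM in Control and 72.3, 35.1 and 60.6 SRPBM in TLE. Control 2 and TLE 2 had 4 reads each, so the groups overlapped, and limma gave a log2 fold change of 1.504 ± 0.65 (SE; adjusted p = 0.766) over 22 reads in all. The call was lost without Control 1 or Control 3 (1.23 each), without TLE 1 (1.34) and without TLE 3 (1.44), and after scaling to the same total (1.39). The 2 loops divided the reads equally. The loop of exons 12 to 17, mmu_circ_0004814, was listed at 0 in all 3 Control libraries and had 41.3, 35.1 and 26.0 SRPBM in TLE, from 4, 4 and 3 reads. If a listed 0 is taken as at most 3 reads in each Control library, it was at least 1.29-fold higher in TLE. That bound may not hold: of 400 circRNAs with at least 100 reads, 23 were listed at 0 in at least 1 library. Limma gave a log2 fold change of 1.57 ± 0.56 (SE, adjusted p = 0.838), which depends on the constant added. This loop met the filter through the 3 TLE libraries alone, and with any 1 of them left out it could no longer be compared. The other loop, exons 3 to 8, mmu_circ_0004815, had 0, 37.2 and 0 SRPBM in Control and 31.0, 0 and 34.6 SRPBM in TLE, overlapping.

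Clasp2, which steadies microtubule plus ends, had the most circRNAs of the kind, 5, and 0, 18.6 and 0 SRPBM in Control against 31.0, 96.4 and 26.0 SRPBM in TLE. TLE was above Control in all libraries, and the log2 fold change of 1.498 ± 0.65 (limma, SE; adjusted p = 0.766) was just short of the threshold. No single Clasp2 circRNA was above 0 in 3 libraries, so none was compared by itself: 4 of the 5 were listed in 1 library only. The related Clasp1 held 88.2% of its reads in exon 2 alone, a loop of 479 bases, and its levels of 51.3, 112 and 25.8 SRPBM in Control and 72.3, 114 and 86.5 SRPBM in TLE overlapped. Map2, the marker protein of dendrites, and Mapt (tau), that of axons, had 17 and 2 reads in all.

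Spectrins and ankyrins had 16 circRNAs of 5 hosts. Ank3 encodes ankyrin-G, which gathers sodium channels at the axon initial segment. It had 222, 158 and 103 SRPBM in Control and 103, 132 and 51.9 SRPBM in TLE. TLE 3 was the lowest library, and the groups overlapped (limma, log2 fold change -0.68 ± 0.42, SE; adjusted p = 0.854). A loop of exons 36 to 38 (351 bases) held 79.1% of the Ank3 reads, with 145, 112 and 103 SRPBM in Control and 82.6, 114 and 51.9 SRPBM in TLE. Sptan1, the common alpha spectrin of brain, had 128, 102 and 94.7 SRPBM in Control and 114, 184 and 129.8 SRPBM in TLE, overlapping (limma, log2 fold change 0.33 ± 0.38, SE; adjusted p = 0.905). Sptbn4, the beta spectrin that partners ankyrin-G at the axon initial segment, had 42.7, 93.0 and 51.7 SRPBM in Control and 41.3, 0 and 60.6 SRPBM in TLE, also overlapping.

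The spectraplakins Macf1 and Dst and the scaffold Iqgap2, which binds actin, had 14 circRNAs. All 3 had a log2 fold change below 0, between -0.88 and -0.31, against 749 of all 2157 hosts below 0, and none passed in limma. After scaling to the same total the range of the 3 was -1.01 to -0.51. Their sum was 342, 363 and 241 SRPBM in Control and 309.9, 114 and 242 SRPBM in TLE, overlapping. Dst had 51.3, 74.4 and 68.9 SRPBM in Control and 51.6, 26.3 and 34.6 SRPBM in TLE. Macf1 had 68.4, 65.1 and 68.9 SRPBM in Control and 93.0, 0 and 34.6 SRPBM in TLE, so TLE 1 was the highest library of all and TLE 2 was listed at 0.

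Iqgap2 had 6 circRNAs, which summed to 222, 223 and 103 SRPBM in Control and 165, 87.7 and 173 SRPBM in TLE (limma, log2 fold change -0.31 ± 0.39, SE; adjusted p = 0.907). The loop of exons 19 to 25, mmu_circ_0002197, was the circRNA called lower in TLE. It had 34.2, 65.1 and 25.8 SRPBM in Control, from 4, 7 and 3 reads, and was listed at 0 in all 3 TLE libraries. If a listed 0 is taken as at most 3 reads in each TLE library, it was at least 1.503-fold lower in TLE. That bound may not hold, because circRNAs with many reads in other libraries were also listed at 0. Limma gave a log2 fold change of -1.73 ± 0.59 (SE, adjusted p = 0.838), which depends on the constant added. This loop met the filter through the 3 Control libraries alone, and without any 1 of them it was above 0 in too few libraries to be compared. The loop of exons 2 to 5, mmu_circ_0002201, held 61.1% of the Iqgap2 reads, with 128, 130.2 and 0 SRPBM in Control and 103, 87.7 and 147 SRPBM in TLE. Control 3 was listed at 0 although the other 5 libraries had between 10 and 17 reads, and the log2 fold change turned from 0.83 to -0.20 without it. Loops of exons 6 to 13 (mmu_circ_0002199) and 10 to 13 (mmu_circ_0002198) had at most 5 reads in a library and were at 0 in at least 1 library of each group. The last 2 Iqgap2 loops, mmu_circ_0002202 and mmu_circ_0002200, had 6 and 2 reads, all in Control.

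The shape of the loops was compared with that of all circRNAs as a description. Exons and lengths are those annotated between the ends, because junction reads do not show which of these exons a loop keeps. Both ends lay on annotated exon boundaries for 158 of the 172 (91.9%), against 84.8% of all circRNAs, and the 158 placed on a transcript held a median of 5 exons, against 4. A single exon made up 3 of them (1.90%, against 3.96%), and over 10 exons lay between the ends of 14 (8.86%, against 7.56%). Of those 14, 8 were myosin loops. The exons summed to a median of 669.5 bases (all circRNAs 610.5) over a genomic span with a median of 15803 bases (all circRNAs 14736). The first exon was exon 2 in 15.8%, against 27.7% of all circRNAs. Only coding sequence lay in 141 (89.2%, against 79.8%), while 16 reached into the 5′ UTR and 1 into the 3′ UTR.

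Formin loops had both ends on exon boundaries in 19 of 27 (70.4%), and the share over the other hosts was 95.9%. The introns beside formin loops were long, with a median of 27482 bases. The median was 8121 bases for all 158 placed loops, under the 9268 bases of all circRNAs. In the 44 host transcripts, 227 introns flanked a listed loop and had a median length of 5615 bases (quartiles 2345 and 17178), and 1240 other introns had a median of 1308 bases (quartiles 538.25 and 2699). This follows the annotation only, and introns of 1 gene are not independent.

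**Figure D4:**
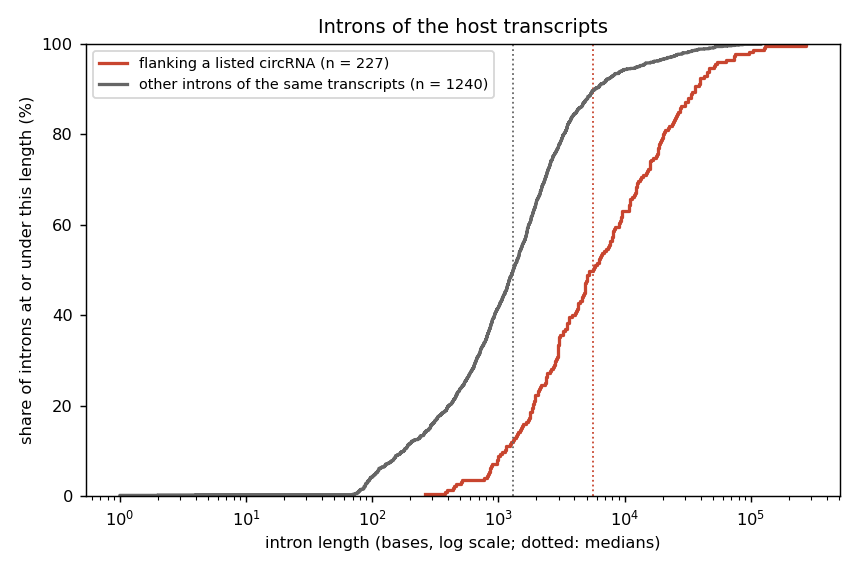
Share of introns at or under a given length (log scale, bases) in the 44 host transcripts, red for the 227 introns that flank a listed circRNA and grey for the 1240 others, with dotted lines at the medians of 5615 and 1308 bases. The red curve lies to the right of the grey one over the range of lengths.

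Most of the formin loops off the exon boundaries came from 1 place in Fmn1. Of its 12 circRNAs 6 started in the intron between exon 2 and exon 3, 3 at chr2:113426522 and 3 at chr2:113426525, which is 3115 and 3112 bases before exon 3. From each start the 3 loops ended at the ends of exon 5, exon 7 and exon 8. Neither start is an exon boundary in GENCODE M21, yet together these loops had 212 junction reads. The upstream start held 144 reads (67.9%) and the downstream one 68 (32.1%). By library the upstream share was 67.4%, 61.5% and 94.1% in Control 1 to 3 and 64.3%, 67.3% and 53.5% in TLE 1 to 3: it was the larger in all 6 libraries, with Control 3 the highest, and the groups overlapped. The most abundant of them, mmu_circ_0005581 (to exon 8), had 128, 46.5 and 146 SRPBM in Control and 41.3, 140.3 and 112 SRPBM in TLE.

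**Figure D5:**
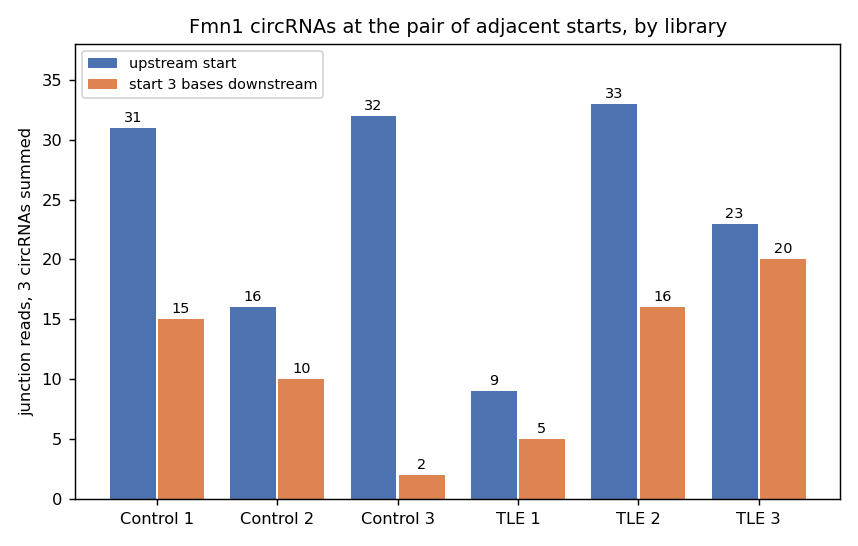
Junction reads in each library for the 3 Fmn1 circRNAs that begin at the upstream start (blue) and the 3 that begin 3 bases downstream (orange). The blue bar is the taller in all 6 libraries, from 9 against 5 reads in TLE 1 to 32 against 2 in Control 3.

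The same spacing was seen in Myo9a, where 9 loops with 193 reads began at chr9:59801914, the annotated start of exon 7, and 3 loops with 9 reads began 3 bases before it. A pair of Dync1i1 loops had starts 2 bases apart, with 11 and 2 reads. Pairs of loops that share 1 end and differ by at most 5 bases at the other numbered 7 among the 172 circRNAs, and 14 circRNAs (8.14%) were in such a pair; in the whole table there were 56 pairs with 112 circRNAs (1.0%). The distance was 3 bases in 6 of the 7 pairs, and in 40 of all 56. Those 6 pairs all came from the Fmn1 and Myo9a starts given above, so they are not independent. The differing end was the acceptor in 7 of the 7, and in 54 of the 56. Whether these are adjacent splice sites or a different placement of the same reads was not tested.

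Beyond these hosts, a list of 82 genes that work with them (dynactin, dynein adaptors, adducins, protein 4.1, actinins, other formins, end-binding and severing proteins) was counted for comparison. Of these genes 41 were hosts, with 147 circRNAs, and 33 hosts could be compared. Of the 33, 1 was called higher and 1 lower, against 1.53% and 0.371% of all hosts. Fhod3, a formin of muscle sarcomeres, was called higher, with 0, 27.9 and 17.2 SRPBM in Control and 72.3, 70.1 and 138 SRPBM in TLE (limma, log2 fold change 1.84 ± 0.60, SE; adjusted p = 0.728). All TLE libraries lay above all Control libraries for 3 of the 33 hosts, Fhod3 among them, against 10.7% of all hosts. They lay below for none, against 1.95%. Hook3, an adaptor that activates dynein, was called lower, with 17.1, 37.2 and 112 SRPBM in Control and 0, 0 and 17.3 SRPBM in TLE (limma, log2 fold change -1.52 ± 0.67, SE; adjusted p = 0.766). Here Control 1 and TLE 3 had 2 reads each and differ by the size of a step alone, so the groups overlapped. The median log2 fold change of the 33 hosts was 0.08, under the 0.20 of all hosts. None of the 56 circRNAs compared was called in limma; 5 had an unadjusted p under 0.05, against the 5.2% of all circRNAs.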

How the data were processed

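The deposited table gives SRPBM (spliced junction reads scaled to a fixed number of mapping reads), a normalized signal that the authors made by filtering reads, calling back-splice junctions with CIRI after BWA-MEM alignment, and dividing junction reads by mapped reads. The submitters' processing notes name mm10 and DESeq2; aligner and caller versions were not given in the sources used here. The authors' files are 6 copies of 1 table of the whole series, and each library was read from its own column. Groups and replicate numbers came from the labels.

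Member circRNAs were summed by host gene, with Ensembl identifiers turned into symbols by GENCODE M21. The groups were compared in R 4.3.3 by limma 3.58.1 (a two-sided moderated test with a variance trend) on log2(SRPBM + 17.1) over all hosts or circRNAs above 0 in at least 3 of 6 libraries, with Benjamini-Hochberg adjustment over all of them. The calling threshold followed the study's methods. The fit was also run on simulated reads with counting error alone and large changes in circRNAs with many reads. That setting differs from these data, so it does not show how the fit performs on the members. The deposited signal is not a count, and no count test was run. Replicates differed by more than counting error, between 1.75 and 2.51 chi-square per circRNA. An exact permutation test of 3 against 3 libraries cannot give p below 0.10 and was not used. P-values set the difference between the groups against the spread between these libraries, which limma moderates over all hosts or circRNAs fitted. Exons, introns and junction sequences came from the GENCODE M21 annotation of GRCm38 (the assembly that mm10 also names), and a transcript with both ends as exon boundaries was required.

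The members, the list of 82 partner genes and the marker lists were chosen with earlier results of these data known. Named were the 12 hosts of highest mean, the 10 circRNAs of highest mean (8 junctions are printed; mmu_circ_0005581 had no matching transcript and mmu_circ_0005576 reaches into the UTR), all hosts and circRNAs past the threshold, up to 3 on each side whose groups did not overlap, the host with most circRNAs of each kind, the circRNAs of Iqgap2 and the called partners. Other hosts were named after their values were seen. Alternatives tried were the constant added, the filter, the scaling, the variance model, the threshold, a replicate block, the reading of the rule and leaving out each library.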

Additional observations from a re-analysis of the deposited data

How the results depend on the processing

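The number of cytoskeletal hosts called (1) was 2 with a constant of 1 read, 0 with a constant of 1 SRPBM, 0 after scaling each library to the same total, 3 with the fold threshold lowered to 1 on the log2 scale, 0 at an adjusted p under 0.05, and between 0 and 5 when 1 library was left out: 2 without Control 1, 5 without Control 2, 0 without Control 3, 2 without TLE 1, 4 without TLE 2 and 1 without TLE 3. Over these settings 9 different hosts were called at least once, namely Camsap2, Clasp2, Kif1b, Kif21a, Myo16, Myo5b, Dnm1, Dync1li1 and, as lower, Macf1. The number of circRNAs called (2) was 0 at an adjusted p under 0.05 and between 1 and 3 when 1 library was left out, lowest without Control 1 or Control 3; 6 different circRNAs were called at least once. With 2 libraries left in a group, limma shares the spread across both groups. The other alternatives (no filter, a higher filter, eBayes without trend, a broader reading of the rule that adds Kifap3) gave 1 host and 2 circRNAs, and the cause of the differences was not tested.

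The ratio of the summed level (1.18) lay between 1.05 and 1.26 when 1 library was left out, was 1.0 after scaling to the same total, and was 1.21 without the Fmn1 circRNA listed at 0 in TLE 2, an alternative chosen after seeing the data. The share of loops with both ends on exon boundaries (91.9%, 95% Wilson interval 86.8 to 95.1%) was 95.9% without the formins, likewise chosen after seeing the data. The interval treats the loops as independent, but many share a host and an end, so it is likely too narrow.

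After scaling to the same total the log2 fold change turned for Fmn2 (-0.050), Dync2h1 (-0.15), Dync1i1 (-0.18) and mmu_circ_0010677 (-0.059). When 1 library was left out it ran across 0 for the hosts Fmn2 (-0.0063 to 0.30), Fmn1 (-0.38 to 0.17), Camsap1 (-0.015 to 0.56), Dync2h1 (-0.30 to 0.36), Dnm3 (-0.26 to 0.73), Dync1i1 (-0.12 to 0.30) and Kif16b (-0.73 to 0.19). It did so for the circRNAs mmu_circ_0005022 (-0.23 to 0.00086), mmu_circ_0005576 (-2.24 to 0.37), mmu_circ_0006027 (-0.034 to 0.61), mmu_circ_0010571 (-0.065 to 0.44), mmu_circ_0010677 (-0.19 to 0.32), mmu_circ_0005581 (-0.54 to 0.32) and mmu_circ_0002201 (-0.20 to 1.35). Of the named genes and circRNAs under all alternatives, 353 values kept direction and side of the threshold, 26 turned sign, 7 passed the threshold that had not and 6 no longer passed.

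Replicate numbers did not pair the samples: deviations of libraries of the same number correlated by 0.019, 0.014 and 0.010, although each library correlated best with its own number. With the replicate block 1 host and 2 circRNAs were called, and no call changed. The planned edgeR and DESeq2 alternatives on recovered reads were not run. Group overlap, kinds of host and the Fmn1 sum after scaling or without mmu_circ_0005576 were computed after seeing the data. Of the 172 circRNAs, 100 were above 0 in too few libraries to be compared. The 72 compared had a median of 21 reads over the 6 libraries, 15 of them had at most 10, and the 2 called had 14 and 11.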
